A study of Mus musculus with 24 samples.

Results

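Inhibitory interneurons that derive from the medial ganglionic eminence, labelled Inh-MGE, were 1 of 17 cell types in a single-nucleus RNA sequencing (snRNA-seq) table of the mouse ventral hippocampus and 1 of 15 in a single-nucleus ATAC sequencing (snATAC-seq) table, which measures open chromatin. The members were taken by their label: the 4 columns of Inh-MGE in each table, 1 per library, against the 64 other columns of the snRNA-seq table and the 56 of the snATAC-seq table. They held 1637 of 30880 nuclei in snRNA-seq and 1772 of 27206 in snATAC-seq. The labels came from clustering these nuclei on their transcripts, and the snATAC-seq labels were transferred from the snRNA-seq data, so a difference between Inh-MGE and another label is given below as a description, with no test.

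The study compared inbred strains at the level of cell types, and strains carry different alleles at many loci. Both groups used here were adult male mice aged 10 to 16 weeks: C57BL/6J (B6), the strain of the reference genome, and DBA/2J (D2). Neither strain carried an engineered allele or received a treatment. Each strain had 2 replicates per assay, each made from the ventral hippocampi of about 2 pooled animals. Neuronal nuclei were enriched for snRNA-seq by sorting on NeuN and were not enriched for snATAC-seq. Column names give the strain and a library number, 2 or 3, that is not a replicate number of the samples, so that a column could be placed in its strain alone. Since nothing ties a library to 1 animal, the p-values below measure the spread between pooled libraries.

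The Inh-MGE counts of snRNA-seq summed to 3533255 and 4007936 in B6 libraries 2 and 3 and to 4074254 and 2851256 in D2 libraries 2 and 3, from 444, 394, 490 and 309 nuclei. Those of snATAC-seq summed to 4633977, 5717440, 7437300 and 6686684 in the same order, from 400, 304, 632 and 436 nuclei. Inh-MGE made up 4.90% to 6.12% of the nuclei of a snRNA-seq library and 5.37% to 8.13% of those of a snATAC-seq library, and 50.9% to 55.2% of the snRNA-seq nuclei with an interneuron label. Neuronal labels held 5960 of 8707 nuclei in B6 library 2 of snRNA-seq, and 7284 of 7445 in that of snATAC-seq. In D2 library 3 they held 4026 of 6312 and 7040 of 7175. Of nuclei with a neuronal label, Inh-MGE made up 7.45% to 8.86% in snRNA-seq and 5.49% to 8.31% in snATAC-seq. Transcript levels are given as CPM, the count scaled to a common library total, over the 22067 symbols counted in both strains, and accessibility as CPM over all 300819 peaks. In each list of 4 values the order is B6 library 2, B6 library 3, D2 library 2 and D2 library 3. CPM is not divided by transcript length, so levels are compared between libraries or cell types for 1 gene and not between genes.

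Interneurons of this lineage are born in the medial ganglionic eminence of the embryonic forebrain, where the homeodomain protein NKX2-1 switches on Lhx6, which encodes a LIM homeodomain factor that the cells keep into adulthood. LHX6 acts upstream of SOX6 and SATB1 in their maturation. The mature cells release GABA and fall into somatostatin cells, which mostly contact dendrites, and parvalbumin cells, which fire fast trains of spikes and contact cell bodies and axon initial segments, while interneurons of the caudal ganglionic eminence (Inh-CGE here) carry markers such as Vip, Cck and Adarb2.

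The markers of the label were read in both strains, as a description, since the label was made from these transcripts. Lhx6 was at 58.3, 61.2, 85.1 and 71.5 CPM in the Inh-MGE libraries, at 82.4 CPM in Inh-Lamp5 and at 0.399 CPM in Inh-CGE. Sst, which encodes somatostatin, was at 1528, 622, 1203 and 2191 CPM. Pvalb, which encodes the calcium buffer parvalbumin, was at 21.4, 22.9, 28.3 and 20.4 CPM. For Sst and Pvalb every Inh-MGE library lay above each of the 16 other labels, of which the nearest were microglia (NN-MGC) at 71.4 CPM for Sst and vascular and leptomeningeal cells (NN-VLMC) at 5.48 CPM for Pvalb. Lhx6 ranked 2 of 17, and Inh-Lamp5, a label of interneurons named for Lamp5, held more of it. The table has 1 label for this lineage, so somatostatin and parvalbumin cells were summed together, and a lower level of a transcript in such a sum cannot be told apart from fewer cells that carry it.

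**Figure D1:**
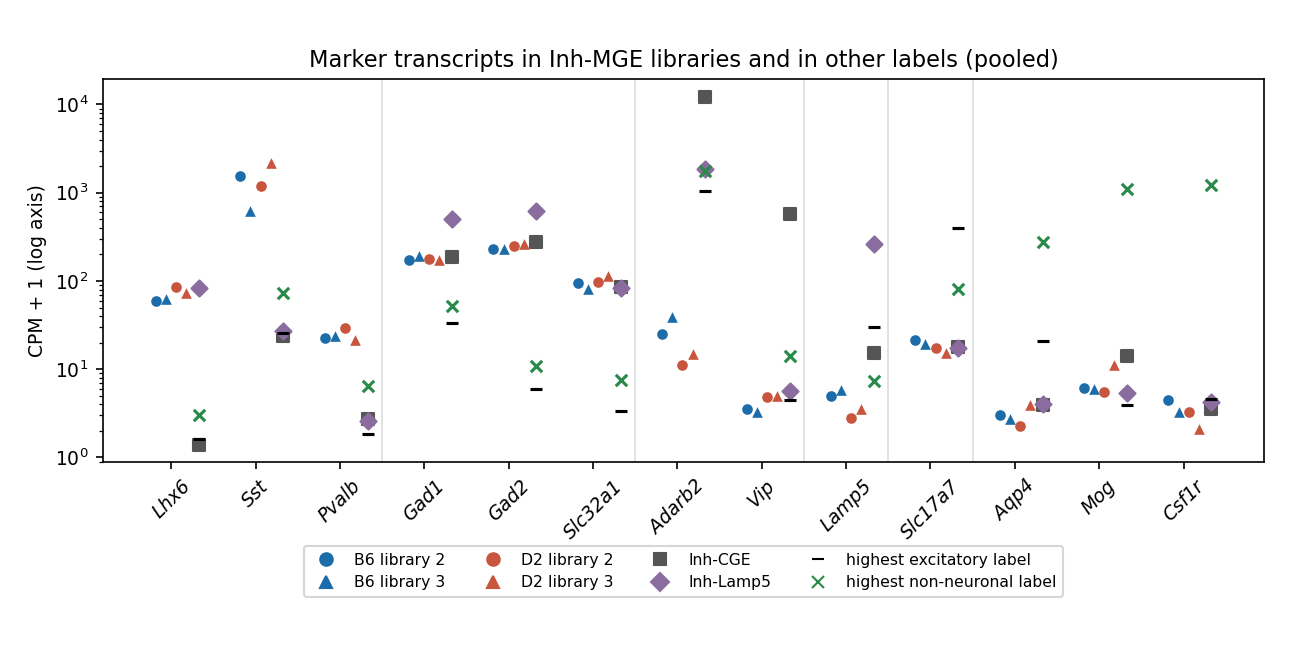
Levels of 13 marker transcripts (horizontal axis) as CPM + 1 on a log axis. Blue and red points are the B6 and D2 libraries of Inh-MGE, squares and diamonds are Inh-CGE and Inh-Lamp5, and the dash and cross are the highest excitatory and the highest non-neuronal label, all pooled over libraries. The Inh-MGE points for Sst lie between 622 and 2191 CPM, above all other symbols, while for Adarb2 and Vip they lie far below Inh-CGE, and for Lhx6 they lie beside Inh-Lamp5.

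The genes of GABA synthesis and packaging placed Inh-MGE with the other interneurons. Gad1 and Gad2, which encode the enzymes that make GABA, were at 171 to 191 and 228 to 260 CPM, near Inh-CGE (186 and 276 CPM) and below Inh-Lamp5 (501 and 621 CPM). Slc32a1, the vesicular GABA transporter, was at 92.9, 80.8, 95.3 and 113 CPM, around the 83.9 CPM of Inh-CGE, while no excitatory label passed 2.38 CPM. Of the 12 pan-GABAergic genes 3 were highest in Inh-MGE, beside 763 of the 13907 transcripts later tested between strains.

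Among the regulators of the lineage, Sox6 and Satb1 separated Inh-MGE from Inh-CGE. Sox6 was at 390, 383, 404 and 332 CPM against 8.50 CPM in Inh-CGE and 32.0 CPM in Inh-Lamp5, and only oligodendrocyte precursors (NN-OPC, 1614 CPM) and 1 further label were higher. Satb1, a chromatin organizer, was at 272, 240.0, 208 and 200.2 CPM, and the next label was the excitatory Exc-ENT at 112 CPM. Nkx2-1, the regulator that starts the programme in the embryo, was at 0.572, 0, 0.764 and 1.09 CPM and was higher in Inh-Lamp5, at 9.96 CPM. Of the 11 regulators of the list counted in both strains 1 was highest in Inh-MGE, beside 763 of 13907 transcripts. Zeb2 and Tox both stood at rank 8 of the 17 labels. The list summed to 2547 to 2751 CPM in the Inh-MGE libraries, below the 2834 CPM of Inh-Lamp5 and above the 1791 CPM of Inh-CGE.

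Marker lists of other cell types were then read in the 4 libraries. The 4 Inh-CGE markers summed to 94.3 and 85.6 CPM in B6 and to 73.1 and 92.6 CPM in D2, against 13845 CPM in Inh-CGE itself. Slc17a7, the vesicular glutamate transporter of excitatory neurons, was at 14.2 to 20.3 CPM, far from the 395 CPM of the highest excitatory label. The 4 microglial markers summed to 122 to 157 CPM, most of it P2ry12 at 90.4 to 124 CPM, while Csf1r and C1qa were at 1.09 to 4.0 CPM, against 1229.8 and 1206 CPM in NN-MGC. The 3 Cajal-Retzius markers summed to 215 to 295 CPM and the 3 Inh-Lamp5 markers to 224 to 306 CPM, and in both lists nearly all of it was Reln, a gene that somatostatin cells also use, while Ebf3 had no count in any Inh-MGE library. The 3 CA3 markers summed to 178 to 204 CPM and the 3 CA1 markers to 95.2 to 106 CPM. The lists of oligodendrocytes (51.7 to 63.2 CPM), astrocytes (17.3 to 27.7 CPM), oligodendrocyte precursors (7.13 to 12.3 CPM), dentate granule neurons (5.47 to 9.82 CPM) and vascular and leptomeningeal cells (7.43 to 13.8 CPM) were lower. The 5 excitatory markers summed to 272 and 295 CPM in B6 and to 277 and 253 CPM in D2, most of it Camk2a.

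An identity gene was defined as a transcript with at least 20 CPM in all 4 Inh-MGE libraries whose lowest library lay at least 2-fold, on the CPM + 1 scale, above the highest of the 16 other labels. There were 13 among 6578 transcripts at that level (0.198%), and 474 of the 6578 were highest in Inh-MGE at any margin. The next label was Inh-Lamp5 for 4 of the 13, Cajal-Retzius cells (CR-CR) for 2, an excitatory label for 1 and a non-neuronal label for 6, and it was Inh-CGE for 0. Across 12504 transcripts the log2 profile of Inh-MGE correlated most with Inh-CGE (Pearson r = 0.949, Spearman rho = 0.947) and then with Inh-Lamp5 (0.932 and 0.930), a description over transcripts that share libraries and are not independent replicates.

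Besides Sst, 3 of the 13 encode neuropeptides or a peptide-binding protein. Crhbp, the secreted protein that binds corticotropin-releasing hormone (chr13:95431371-95444924, minus strand, GRCm38), had the largest margin. It was at 111, 61.4, 92.2 and 121 CPM, and the next label, CR-CR, was at 5.03 CPM, so that the lowest library was 3.37 log2 units higher. Tac1, the precursor of substance P, was at 80.6, 59.2, 64.5 and 79.1 CPM, against 15.4 CPM in NN-OPC and 1.33 CPM in Inh-CGE. Cort, which encodes cortistatin, a relative of somatostatin, was at 78.3, 39.0, 24.2 and 49.6 CPM, against 7.96 CPM in CR-CR and 0.934 CPM in Inh-CGE. Npy, which encodes neuropeptide Y and is common in somatostatin cells, was highest in Inh-MGE in 3 libraries (178, 91.9, 151 and 315 CPM) but missed the rule, since B6 library 3 lay below the 110.2 CPM of Inh-Lamp5. Cck went the other way: at 42.6 to 53.2 CPM it was lower in Inh-MGE than in any other label, and Inh-CGE held 492 CPM.

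**Figure D2:**
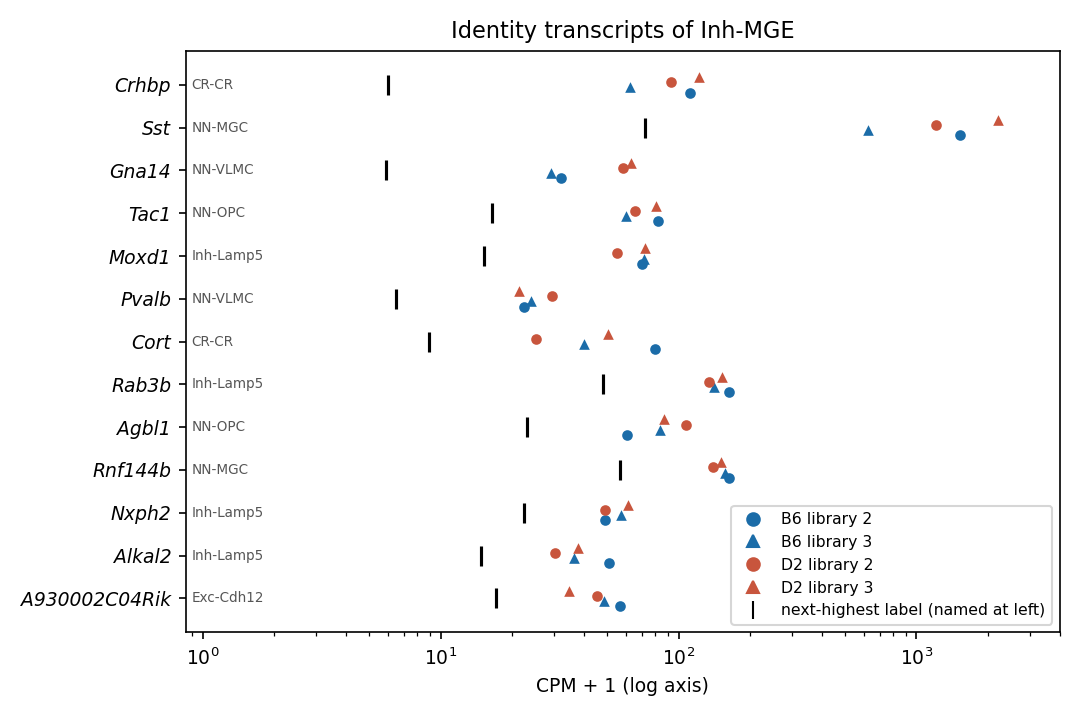
The 13 identity transcripts (vertical axis) with the level in each Inh-MGE library as CPM + 1 on a log axis, B6 in blue and D2 in red, and the level of the next-highest label, named at the left, as a black bar. Every point lies to the right of its bar, with the widest gaps for Crhbp and Sst, and B6 and D2 points separate for Gna14, at 28.2 to 31.2 against 57.3 to 62.4 CPM.

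Other identity genes encode signalling and membrane-traffic proteins. Gna14, an alpha subunit of the Gq class of G proteins (chr19:16435762-16610820, plus strand), was at 31.2, 28.2, 57.3 and 62.4 CPM, against 4.93 CPM in NN-VLMC. Rab3b, a small GTPase of synaptic vesicles, was at 162, 140.0, 134 and 151 CPM, against 47.0 CPM in Inh-Lamp5. Nxph2, a neurexophilin that binds alpha-neurexins, was at 48.0, 56.4, 48.1 and 60.2 CPM, against 21.5 CPM in Inh-Lamp5 and 0.399 CPM in Inh-CGE. Its relative Nxph1 reached 2279.7 to 2500.1 CPM but was shared with Inh-Lamp5 (2358 CPM), whereas Inh-CGE held 266 CPM. Alkal2, which encodes a ligand of the receptor kinases ALK and LTK, was at 29.3 to 50.0 CPM, against 13.8 CPM in Inh-Lamp5.

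The remaining 4 identity transcripts encode enzymes or are noncoding. Moxd1, a relative of dopamine beta-hydroxylase, was at 69.2, 70.5, 54.3 and 71.1 CPM, against 14.3 CPM in Inh-Lamp5. Agbl1, a carboxypeptidase that trims glutamates from tubulin, was at 59.5, 82.6, 106 and 86.1 CPM, against 22.1 CPM in NN-OPC, and it overlaps another gene on its strand. Rnf144b, a ubiquitin ligase, was at 138 to 162 CPM, against 55.8 CPM in NN-MGC. A930002C04Rik, an antisense transcript inside Rnf144b, was at 33.6 to 56.0 CPM, and since the use of strand in counting is not given in the sources used here, its reads and those of Rnf144b could not be told apart. Just inside the limit stood A930002C04Rik and Alkal2, at margins of 1.02 and 1.03 log2 units, and just outside it stood Gm31218, Mageb18 and Satb1, at 0.96, 0.84 and 0.83.

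Sst varied between libraries more than most transcripts. Its highest library stood 3.52 times above its lowest, against 1.46 times for Lhx6, 1.38 times for Pvalb and a median of 1.28 times over the 6578 transcripts at 20 CPM, of which 19 had a larger ratio. B6 library 3 was lowest and D2 library 3 highest, and the strains overlapped, since B6 library 2 (1528 CPM) lay above D2 library 2 (1203 CPM). Npy, Crhbp and Pnoc, the last encoding the precursor of nociceptin, ranked the libraries as Sst did, 3 of the 11 other genes of a somatostatin cell list at 5 CPM, beside 6.48% of 12082 transcripts, though the order was read off after Sst was seen. Among the 11, 6 were lowest in B6 library 3 and 6 highest in D2 library 3, as were 37.1% and 36.9% of the 12082 transcripts. Lhx6, which marks both cell classes, was lowest in B6 library 2 (58.3 CPM), close to B6 library 3 (61.2 CPM).

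Genes of parvalbumin cells and of fast spiking were also high, though few were restricted to the label. Kcnc2, a Kv3 potassium channel subunit that lets these cells repolarize quickly, was at 2843, 3077, 2371 and 2083 CPM, the highest of the 17 labels, with Inh-CGE next at 1303 CPM. Its partner Kcnc1 was at 218 to 247 CPM, against 204 CPM in Inh-Lamp5. Cplx1, a complexin of fast transmitter release, was at 52.5 to 61.7 CPM, against 31.3 CPM in Inh-Lamp5. Erbb4, the neuregulin receptor of interneurons, was at 4615 to 6649 CPM but higher in Inh-Lamp5, at 11236 CPM. Acan, the core protein of the nets that wrap parvalbumin cells, was at 1.43 to 6.56 CPM, below NN-OPC at 30.4 CPM. Of the 15 parvalbumin cell genes 8 were highest in Inh-MGE, as were 5 of 15 somatostatin cell genes, 3 of 16 channels of fast spiking, 4 of 19 glutamate receptor genes, 1 of 10 genes of perineuronal nets and 0 of 14 GABA receptor genes. Over all 13907 transcripts tested between strains 763 were highest in Inh-MGE.

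A few transcripts marked Inh-MGE by being low. Among 5246 transcripts with at least 20 CPM in every other neuronal label, 8 were at least 2-fold lower in each Inh-MGE library than in the lowest of them. Cacna2d1, a calcium channel subunit that binds gabapentin, was at 24.9, 22.7, 21.7 and 17.9 CPM, against 94.5 CPM in Inh-CGE, the lowest other neuronal label, and 2188 CPM in Inh-Lamp5. Its relative Cacna2d2 showed the reverse, at 201 to 221 CPM against 39.7 CPM in Inh-CGE and 28.8 CPM in Inh-Lamp5. Ust, a sulfotransferase of chondroitin chains, was at 10.6 to 15.7 CPM against 72.1 CPM in Exc-ENT, and the transcription factor Nfix at 6.11 to 8.06 CPM against 29.0 CPM in Inh-CGE. Rbfox3 encodes NeuN, the antigen of the nuclear sort. It missed the 2-fold rule, at 0.91 log2 units below, and was at 146, 147, 154 and 138 CPM in Inh-MGE against 289.9 CPM in CR-CR, the lowest other neuronal label, and 551 CPM in Exc-DG. The part of the sort in the share of Inh-MGE nuclei was not tested.

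Open chromatin was read by a similar rule. An identity peak needed at least 5 CPM in all 4 Inh-MGE libraries and a 2-fold margin over the 10 other labels with enough counts. The 4 labels left out for depth were the non-neuronal ones, so identity peaks were not compared with those cells. There were 578 among 33067 peaks at that level (1.75%), or 518 with all labels whatever their depth. Inh-CGE was next for 279 of the 578, Inh-Lamp5 for 128 and an excitatory label for 171. They lay far from gene starts: 4.67% were within 2 kb of a start site, against 38.4% of the 33067. Between 50 and 200 kb lay 32.9% of the identity peaks and 16.9% of the 33067, and beyond 200 kb 15.7% and 3.85%. Of the 13 identity genes 6 held an identity peak within the gene or 2 kb of it (46.2%), against 159 of 6518 genes at 20 CPM (2.44%), a description only, because the labels of both assays rest on the same markers and genes differ in length.

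**Figure D3:**
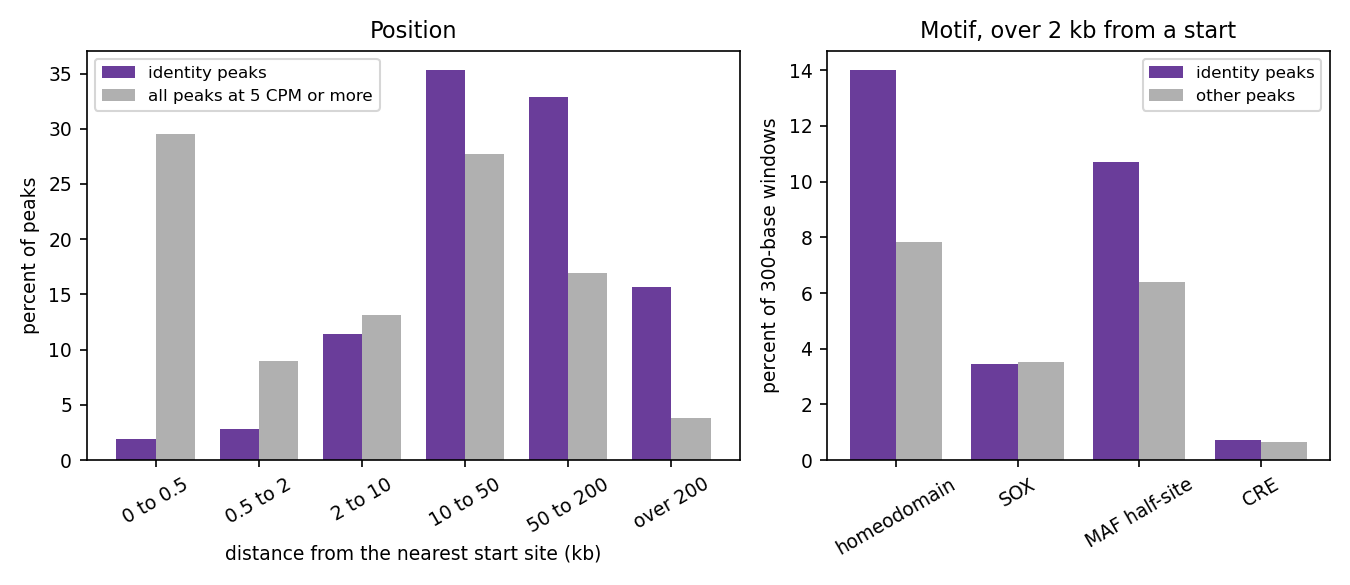
Left, percent of peaks (vertical axis) by distance from the nearest start site in kb, for the 578 identity peaks (purple) and all 33067 peaks at 5 CPM (grey). Right, percent of 300-base windows over 2 kb from a start site that held each motif, for 551 identity peaks and 19810 other peaks. Identity peaks sit mostly beyond 10 kb, and the homeodomain motif stood in 14.0% of them against 7.83%.

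Of the 13 identity genes 7 held no identity peak, and at some the start was as open in Inh-CGE: the start peak of Rab3b was at 20.5 to 23.2 CPM against 20.8 CPM, and that of Rnf144b at 23.1 to 23.9 CPM against 20.4 CPM. The identity peaks of the other 6 and of 2 regulators follow. The single peak at Sst spans its start site (chr16:23890268-23891073, GRCm38), overlaps its first exon and was at 13.6, 13.3, 16.4 and 16.0 CPM, against 3.10 CPM in Inh-CGE. The Crhbp peak lies inside the gene, overlaps its exons 1.18 kb from the start (chr13:95443191-95444308) and was at 18.3, 19.1, 20.4 and 19.3 CPM, against 4.85 CPM in Inh-CGE. The Pvalb peak lies in an intron, 10.8 kb from the start (chr15:78195193-78196023), and was at 10.8, 10.5, 11.3 and 11.8 CPM, with Exc-CA3 next at 4.38 CPM. Gna14 held 2 intronic identity peaks, 42.0 and 141 kb from its start, and Rab3b and Agbl1 held 1 each. Sox6 held 2 and Satb1 held 1, the latter at 7.55, 8.05, 7.40 and 7.18 CPM against 2.69 CPM in Exc-ENT. Oprd1, the delta opioid receptor gene, was no identity gene but held a peak at chr4:132137099-132137833 that was at 24.6, 22.7, 17.6 and 17 CPM against 3.38 CPM in Inh-Lamp5.

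The Sst start site carries the cyclic AMP response element through which the gene is classically induced. It is shown with its flanks because it lies inside the identity peak of a gene that marks the label. The letters are those of the minus strand, 5′ to 3′, from RefSeq (GRCm38.p6, chr16:23890874-23890903), and the capitals mark the element TGACGTCA, which begins 48 bases before the start.
Sst: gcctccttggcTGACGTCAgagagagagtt
The element was present in 1.55% of 32851 windows of 250 bases before a RefSeq start, and in 1 of the 15 windows of the 13 identity genes. Cort, the related peptide gene, had no such element but a homeodomain core, TAATTA, beginning 85 bases before its start. Its start accessibility, here and below summed over peaks within 2 kb of a start, was at 24.0, 29.7, 18.8 and 19.7 CPM, against 14.9 CPM in Inh-Lamp5 and 6.02 CPM in Inh-CGE. The 250 bases before the Cort start are shown in the direction of the gene, which is on the minus strand (chr4:149126764-149127013, GRCm38.p6, RefSeq), with the core in capitals.
Cort: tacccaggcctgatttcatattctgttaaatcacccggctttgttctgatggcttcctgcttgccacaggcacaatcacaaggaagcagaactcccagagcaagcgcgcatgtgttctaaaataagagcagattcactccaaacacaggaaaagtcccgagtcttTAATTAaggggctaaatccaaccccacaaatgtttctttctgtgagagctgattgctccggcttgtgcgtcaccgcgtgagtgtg
TAATTA stood in 3 of the 15 windows of identity genes (Alkal2, Cort and Tac1), against 4.84% of the 32851. A match of letters is not a binding site.

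The 5 peaks with the largest margins lay between genes. The largest margin was that of a peak, its sequence not shown, at 12.3, 10.8, 9.95 and 10.2 CPM, against 0.470 CPM in Exc-CA1-Galntl6, with its nearest start site 72.2 kb away. One on chromosome 1 was at 10.6, 8.40, 8.74 and 8.52 CPM, against 0.356 CPM in Inh-CGE, with its nearest start site 152 kb away. One on chromosome 3 was at 11.4, 11.9, 14.4 and 15.6 CPM, against 0.938 CPM in Inh-CGE, 296 kb from the nearest start site. The strains overlapped in the chromosome 1 peak, while in the chromosome 3 peak the D2 libraries were the higher pair, a difference that edgeR's quasi-likelihood test did not call (adjusted p = 0.485). Others lay on chromosome 8 (chr8:113157342-113158049) and chromosome 11 (chr11:45124748-45125152), the latter at 11.2 to 14.3 CPM against 0.824 CPM in Inh-Lamp5. The central 200 bases of 5 identity peaks, 4 of these and the one at Pvalb, are shown, on the plus strand of GRCm38.p6, with TAATTA in capitals: the chromosome 1 peak chr1:95869201-95869523 (bases chr1:95869262-95869461), the chromosome 3 peak chr3:148425981-148426755 (bases chr3:148426268-148426467), the chromosome 8 peak (bases chr8:113157595-113157794), the chromosome 11 peak (bases chr11:45124850-45125049) and the intronic Pvalb peak (bases chr15:78195508-78195707). None of the 4 motifs searched occurred in these bases of the chromosome 8, chromosome 11 and Pvalb peaks.
Chromosome 1 peak: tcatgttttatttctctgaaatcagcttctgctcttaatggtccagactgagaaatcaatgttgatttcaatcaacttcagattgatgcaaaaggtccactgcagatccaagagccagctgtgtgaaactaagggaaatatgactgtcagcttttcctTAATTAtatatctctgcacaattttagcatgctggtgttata
Chromosome 3 peak: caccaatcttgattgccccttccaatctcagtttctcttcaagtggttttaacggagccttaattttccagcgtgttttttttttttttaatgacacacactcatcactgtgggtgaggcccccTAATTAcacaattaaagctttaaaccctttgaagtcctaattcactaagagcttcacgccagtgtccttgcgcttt
Chromosome 8 peak: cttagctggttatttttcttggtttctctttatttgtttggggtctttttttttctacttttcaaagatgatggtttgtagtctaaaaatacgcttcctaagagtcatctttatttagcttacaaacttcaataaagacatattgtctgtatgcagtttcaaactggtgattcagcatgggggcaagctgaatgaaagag
Chromosome 11 peak: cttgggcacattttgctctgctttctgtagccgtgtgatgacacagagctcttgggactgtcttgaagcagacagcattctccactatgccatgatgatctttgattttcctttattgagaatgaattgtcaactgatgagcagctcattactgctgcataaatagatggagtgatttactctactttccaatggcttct
Pvalb intron peak: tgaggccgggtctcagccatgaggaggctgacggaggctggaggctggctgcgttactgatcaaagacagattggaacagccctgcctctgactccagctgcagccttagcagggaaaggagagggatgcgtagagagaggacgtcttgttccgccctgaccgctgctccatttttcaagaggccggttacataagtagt

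A count of 4 short motifs over the 300 central bases of each peak, on both strands, put numbers to this. TAATTA, the core bound by homeodomain factors such as those of the LHX and DLX families, stood in 79 of 578 identity peaks (13.7%) and in 5.67% of the 33067. Among peaks over 2 kb from a start site it stood in 77 of 551 (14.0%) against 7.83% of 19810 others. TGCTGAC, a core of the sites of the MAF family, stood in 10.7% of the distal identity peaks against 6.41%. ACAATGG, a SOX core, differed little, at 3.45% against 3.51%, as did TGACGTCA, at 0.726% against 0.651%. The end of TGCTGAC can overlap the beginning of TGACGTCA. The median GC content of the distal windows was 44.7% in identity peaks and 49.7% in the others, and the part of base composition in the motif shares was not tested.

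Start sites were then compared with those of Inh-CGE. For 263 genes at least 2-fold higher in transcripts in Inh-MGE than in Inh-CGE, the median difference in start accessibility was 0.31 log2 units, and 21 of them (7.98%) reached 2-fold. For 5828 genes within 2-fold in transcripts the median was 0.01 and 15 (0.257%) reached 2-fold. The start peaks of Lhx6 were at 51.1, 49.1, 56.1 and 52.5 CPM against 14.7 CPM in Inh-CGE and 35.5 CPM in Inh-Lamp5. Adarb2 went the other way, with start accessibility of 16.0, 14.3, 10.8 and 12.9 CPM against 33.8 CPM in Inh-CGE.

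D2 was then compared with B6 within Inh-MGE, the comparison that the replicates allow to be tested. By edgeR's quasi-likelihood test with Benjamini-Hochberg adjustment at 0.05, 1627 of 13907 transcripts differed (11.7%). D2 was higher for 696 (5.0%) and lower for 931 (6.69%), 3544 passed at an unadjusted p under 0.05, and DESeq2 called 686. Of the 1627, 964 changed by less than 2-fold (59.3%), and the median absolute log2 fold change was 0.84. Leaving out D2 library 3, the shallowest, left 893, and leaving out B6 library 3 left 1052. With 2 libraries per strain an exact permutation test of 1 transcript could not go below p = 0.333, so each p comes from the model over all transcripts, and differences are given as log2 of D2 over B6.

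**Figure D4:**
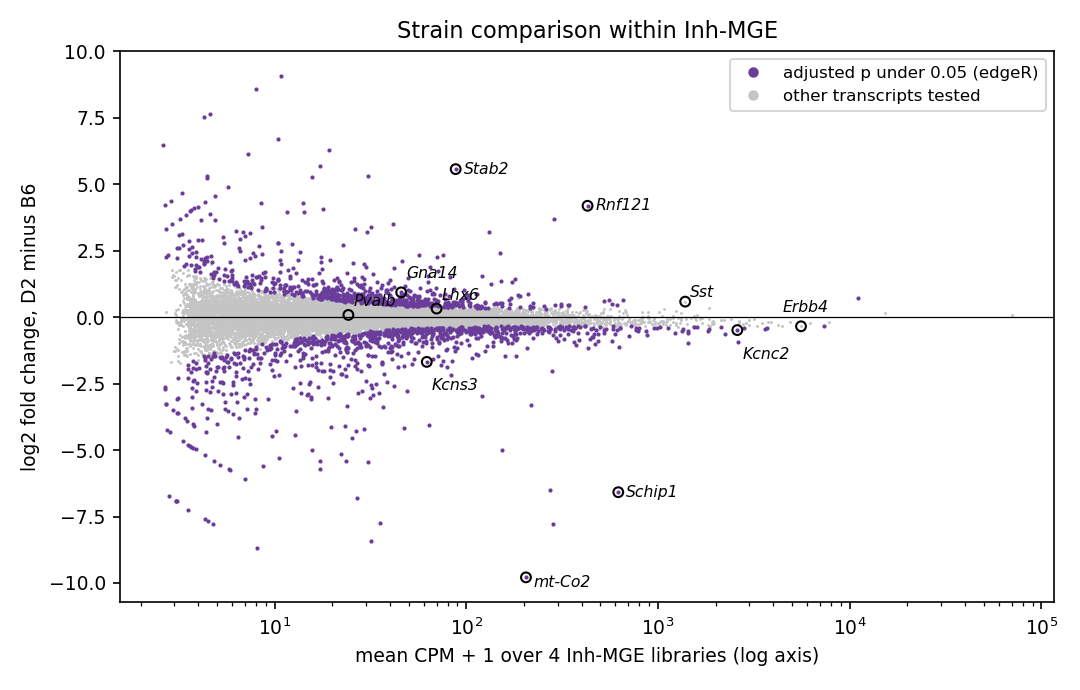
Log2 fold change of D2 over B6 (vertical axis) against the mean CPM + 1 over the 4 Inh-MGE libraries (log axis) for 13907 transcripts, purple where the adjusted p was under 0.05. Most called transcripts lie within 1 unit of 0, Schip1 and mt-Co2 lie at -6.59 and -9.79, Stab2 and Rnf121 at 5.57 and 4.19, and the identity transcripts Sst and Pvalb are grey.

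Among the 13 identity genes 1 was called between strains, beside 11.7% of all transcripts tested. Gna14 was higher in D2, with both D2 libraries (57.3 and 62.4 CPM) above both B6 libraries (31.2 and 28.2 CPM), a log2 fold change of 0.93 ± 0.14 (SE, adjusted p = 0.000192, edgeR). It kept its call in every alternative fit, each library left out included. The strains overlapped for Sst (0.58 ± 0.27, adjusted p = 0.187, edgeR), and its call depended on 1 library: without B6 library 2 the change was 1.34 (adjusted p = 2.75e-07) and without D2 library 2 it was 0.94 (adjusted p = 0.0135). Pvalb stood at 0.08 ± 0.20 and Lhx6 at 0.32 ± 0.13 (adjusted p = 0.836 and 0.130, edgeR), although the strains did not overlap for Lhx6. Cort, at -0.78 ± 0.27 (adjusted p = 0.0717, edgeR), overlapped between strains and passed at -1.20 without B6 library 3 and at -1.32 without D2 library 3.

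Of the interneuron gene lists, 5 held no call. Of 12 pan-GABAergic genes tested 0 were called, as were 0 of 13 somatostatin cell genes, 0 of 19 glutamate receptor genes, 0 of 19 neuropeptide and receptor genes and 0 of 10 genes of perineuronal nets, against 5.0% of all transcripts higher and 6.69% lower. These lists share members and hold 65 genes together, of which 13 passed at an unadjusted p under 0.05, against 25.5% of all transcripts, and 0 were called by DESeq2, against 4.93%. Gad1 and Gad2 stood at -0.12 ± 0.11 and 0.08 ± 0.10. Of 10 lineage regulators 1 was called, beside 11.7% of all transcripts: Satb1 was at 272 and 240.0 CPM in B6 and at 208 and 200.2 CPM in D2, lower in D2 by 0.40 ± 0.11 on the log2 scale (adjusted p = 0.0196, edgeR), and it lost its call in the fits without B6 library 2 (adjusted p = 0.0665), D2 library 2 (0.0697) or D2 library 3 (0.187).

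Potassium and other channels of fast spiking held 4 lower and 0 higher of 16 tested, beside 6.69% and 5.0% of all transcripts, with a list median of 0.03 against 0.01 over all transcripts. Kcns3, a silent subunit that tunes potassium channels in parvalbumin cells, was at 95.2 and 89.1 CPM in B6 and at 29.6 and 31.0 CPM in D2. The strains did not overlap, and D2 was lower by 1.68 ± 0.13 on the log2 scale (adjusted p = 7.12e-08, edgeR). The direction was the same in pooled Inh-CGE, with 16.0 CPM in its B6 columns and 6.15 CPM in D2. Kcnc2 was lower in D2 by 0.49 ± 0.11 and Cacna1a, the P/Q calcium channel, by 0.50 ± 0.10 (adjusted p = 0.00794 and 0.00333, edgeR), but both lost their calls without D2 library 3 (adjusted p = 0.188 and 0.0958). Kcnc1, the partner of Kcnc2, stood at 0.06 ± 0.10, and Scn1a, the sodium channel of these cells, at -0.25 ± 0.11 (adjusted p = 0.762 and 0.149, edgeR).

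**Figure D5:**
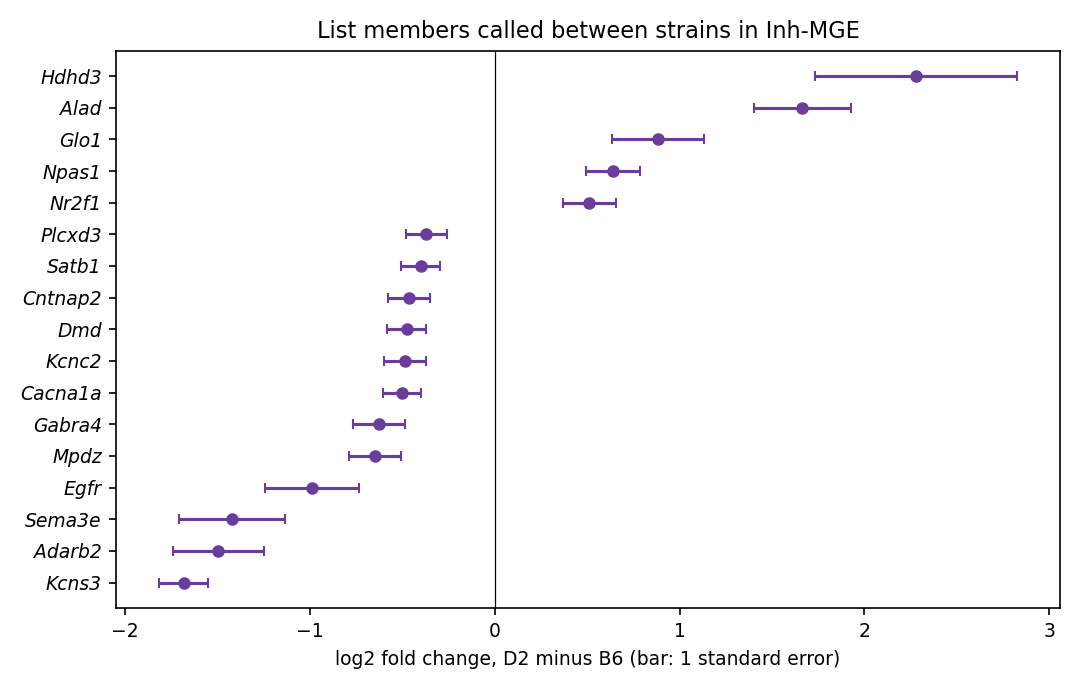
Log2 fold change of D2 over B6 in Inh-MGE (horizontal axis) for 17 members of the gene lists that were called by edgeR, with bars of 1 standard error. The values run from -1.68 for Kcns3 to 2.28 for Hdhd3, with 5 above 0 and 12 below it.

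The parvalbumin cell list held 3 lower and 0 higher of 15 (6.69% and 5.0% of all transcripts), of which Kcnc2 and Kcns3 are the channels above and the third is Plcxd3, a phospholipase-like protein (-0.37 ± 0.11, adjusted p = 0.0380, edgeR, and adjusted p = 0.41 without D2 library 3). Of 14 GABA receptor genes 2 were lower and 0 higher, beside 6.69% and 5.0% of all transcripts, with a list median of -0.25 against 0.01. Gabra4, an alpha subunit found outside synapses, was at 75.8 and 82.3 CPM in B6 and at 60.1 and 46.7 CPM in D2 (-0.63 ± 0.14, adjusted p = 0.00670, edgeR). The strains did not overlap, and the call was lost without D2 library 3 (adjusted p = 0.113).

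Of 20 inhibitory synapse and adhesion genes tested 3 were lower and 0 higher in D2, beside 6.69% and 5.0% of all transcripts, with a list median of -0.25 against 0.01. Sema3e, a repulsive guidance cue, was at 14.9 and 12.8 CPM in B6 and at 5.35 and 5.47 CPM in D2 (-1.42 ± 0.29, adjusted p = 0.00281, edgeR). Cntnap2, which clusters potassium channels at axons, was at 3852, 4351, 3269 and 3006 CPM (-0.46 ± 0.11, adjusted p = 0.0115, edgeR), and Dmd, which encodes dystrophin, a protein of inhibitory synapses on cell bodies, was at 569, 616, 460.1 and 438 CPM (-0.48 ± 0.11, adjusted p = 0.00569, edgeR). The strains did not overlap in any of the 3. Without D2 library 3 the calls of Cntnap2 and Dmd were lost (adjusted p = 0.193 and 0.0996), and that of Cntnap2 was lost without B6 library 3 as well (0.104).

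Markers of the caudal lineage, present at low levels, held 2 higher and 2 lower of 9 tested, beside 11.7% of all transcripts called in either direction. Adarb2, an RNA-binding protein that marks Inh-CGE, was at 24.0 and 38.5 CPM in B6 and at 10.2 and 13.9 CPM in D2, lower in D2 by 1.49 ± 0.25 on the log2 scale (adjusted p = 0.000462, edgeR). Pooled Inh-CGE held 12122 CPM of it in B6, against 12442 CPM in D2. The 4 Inh-CGE markers as a list, of which Adarb2 alone was called and 0 were at 0 in a library, summed to 85.6 to 94.3 CPM in B6 and 73.1 to 92.6 CPM in D2, and their part in this result was not tested. Npas1 and Nr2f1, which encode transcription factors, were higher in D2 by 0.64 ± 0.15 and 0.51 ± 0.14, and Egfr was lower by 0.99 ± 0.25 (adjusted p = 0.00721, 0.0256 and 0.0157, edgeR). The call of Npas1 was lost without B6 library 3 (adjusted p = 0.0798) or D2 library 2 (0.0636), that of Nr2f1 without B6 library 3 (0.225) or D2 library 3 (0.201), and that of Egfr without B6 library 3 (0.0799) or D2 library 2 (0.134). Of the 4 oligodendrocyte markers 1 was lower in D2, Mobp, at 12.9 and 10.3 CPM in B6 and 6.11 and 4.01 CPM in D2 (-1.21 ± 0.32, adjusted p = 0.0174, edgeR), a call lost without B6 library 2 (0.0507) or D2 library 3 (0.151).

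Loci known to differ between these strains were read next. Of 8 tested 3 were higher and 1 lower in D2, beside 5.0% and 6.69% of all transcripts. Alad, an enzyme of haem synthesis, was at 5.43 and 5.54 CPM in B6 and at 18.9 and 17.9 CPM in D2 (1.66 ± 0.26, adjusted p = 0.00031, edgeR). Glo1, glyoxalase, was at 8.58, 11.1, 16.6 and 22.6 CPM (0.88 ± 0.25, adjusted p = 0.0272, edgeR). Mpdz, a scaffold protein linked to seizure susceptibility between these strains, was at 70.9, 75.5, 54.0 and 43.4 CPM (-0.65 ± 0.14, adjusted p = 0.00455, edgeR). The strains did not overlap in these 3 genes, and without D2 library 3 the calls of Glo1 and Mpdz were lost (adjusted p = 0.235 and 0.0802), as was that of Hdhd3 (0.0886), while Alad kept its call. Gabra2 stood at -0.30 ± 0.11, lower in D2 but not called (adjusted p = 0.0867, edgeR), and the remaining members of the list were not called either.

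The changes of largest size were of another kind. Schip1, a cytoskeletal adaptor of axon initial segments, was at 1241 and 1211 CPM in B6 and at 12 and 15.3 CPM in D2 (-6.59 ± 0.15, adjusted p = 3.73e-15, edgeR). Schip1 overlaps 3 other genes on its strand, and the part of this overlap in its change was not tested. Rnf121, a ubiquitin ligase of the secretory pathway, was at 42.9 and 41.8 CPM in B6 and at 847 and 781 CPM in D2 (4.19 ± 0.12, adjusted p = 2.04e-13, edgeR), and Stab2, a scavenger receptor of endothelial cells, rose from 4.29 and 2.52 to 145 and 196 CPM (5.57 ± 0.22, adjusted p = 7.2e-12, edgeR). Pooled Inh-CGE, from the same libraries, held Schip1 at 248 CPM in B6 against 12.6 CPM in D2, Rnf121 at 40.7 and 677 CPM, and Stab2 at 2.17 and 165 CPM. No test of a difference between cell types was run, so a change cannot be called particular to Inh-MGE.

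Among the 20 named transcripts with the largest changes, 10 in each direction, several were mitochondrial or overlapped a neighbour. The cytochrome oxidase transcripts mt-Co2 and mt-Co3 fell from 331 and 483 CPM to 0.509 and 0.365 CPM and from 464 and 666 CPM to 3.57 and 1.46 CPM, with log2 fold changes of -9.79 ± 0.33 and -7.77 ± 0.26 (adjusted p = 6.9e-13 for both, edgeR). The 2 D2 libraries held 2 and 1 counts of mt-Co2, so the size of its change is set by very few reads. Of the 20 named transcripts, 20 were apart the same way by over 4-fold in pooled Inh-CGE and 18 in pooled Inh-Lamp5. Reads of each strain were mapped to a different reference, and the part of mapping in these changes was not tested. Of 12 mitochondrial transcripts tested 6 were lower in D2 and 0 higher, beside 6.69% and 5.0% of all transcripts. Of the 20 transcripts 10 overlapped another gene on their strand, against 24.6% of 13720 tested transcripts with a single annotation entry. The overlapping ones were all of those lower in D2 except mt-Co2, and Gm16271 alone of those higher. Gm20098, higher in D2, had no single annotation entry. Pram1, Rnasek, Cpne1, mt-Atp6, Gm17167, B4gat1 and Gm35256 completed those lower in D2. Fap, Gm20098, Gm49497, Gm16271, Gm20324, Gm16268, Gm3417 and Dnah8 completed those higher.

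A smaller share of peaks than of transcripts was called between strains. By edgeR's quasi-likelihood test with Benjamini-Hochberg adjustment, 1851 of 239554 peaks differed (0.773%), 993 higher in D2 (0.415%) and 858 lower (0.358%), 20377 passed at an unadjusted p under 0.05, and DESeq2 called 336. Each fit without 1 library made 913 to 1042 calls. Of the 578 identity peaks 1 was called, beside 0.773% of all peaks. It lies between genes at chr1:3094606-3095374 and was at 17.7 and 12.8 CPM in B6 and at 9.55 and 7.03 CPM in D2, lower in D2 by 0.80 ± 0.19 on the log2 scale (adjusted p = 0.00696, edgeR), and it lost its call without B6 library 2 (adjusted p = 0.493) or D2 library 3 (0.338). The identity peaks at Sst and Crhbp stood at 0.31 ± 0.17 and 0.13 ± 0.15, and those at Gna14 at 0.26 ± 0.22 and 0.43 ± 0.15 (adjusted p = 0.818 and 0.247, edgeR).

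The largest changes in peaks were presence against absence. A peak at chr6:3200811-3201594 was at 58.5 and 59.8 CPM in B6 and had 0 and 1 counts in D2. One at chr7:52017981-52018186 was at 12.9 and 11.9 CPM in B6 and had 1 and 0 counts in D2. In the other direction, 2 peaks inside Sfi1, a centrosome gene, at chr11:3133952-3134272 and chr11:3132881-3133107, rose from 0 and 3 counts to 96 and 72 and from 2 and 2 counts to 109 and 89. Each also had counts in other labels, given here as means over both strains. Inh-Lamp5 was at 34.6 CPM for the chromosome 6 peak, beside a mean of 29.6 CPM in Inh-MGE. Exc-Gpc6 was at 10.4 CPM for the first Sfi1 peak, beside a mean of 6.05 CPM in Inh-MGE. How these peaks divide by strain in the other labels is not shown here.

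Changes in transcripts were set beside changes at their start sites. Of 1414 called transcripts with a tested start peak 42 had a called one (2.97%), against 120 of 11396 other transcripts (1.05%). These shares count a transcript if any of its start peaks was called. The 0.773% of all peaks that were called is a share of single peaks, so it is not of the same kind. The peak moved in the direction of the transcript for 36 of the 42 (85.7%) and for 77 of the 120 (64.2%). Among called transcripts that overlap no gene on their strand, 32 of 914 had a called start peak (3.50%), 30 of them in the same direction (93.8%). Both assays were read against the same pair of references, so these shares are a description. Single called genes differed in this, and no test of the following values is given. The start peaks of Kcns3 were at 37.3, 41.3, 33.3 and 34.5 CPM, with both D2 libraries below both B6 libraries, the direction of its transcripts. Those of Cntnap2, also lower in D2 in transcripts, went the other way, at 45.7, 44.3, 48.7 and 55.8 CPM. Those of Kcnc2 overlapped between strains, at 36.0, 40.4, 34.6 and 46.7 CPM.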

How the data were processed

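Nuclei of the ventral hippocampus of B6 and D2 mice were profiled by snRNA-seq and snATAC-seq. The authors deposited raw counts per transcript or peak, 1 column for every combination of cell type and library, and the count of nuclei behind each column. Upstream, reads were mapped with Cell Ranger 6.0.2 (introns kept) or Cell Ranger ATAC 2.0.0 to mm10 for B6 and to mm10 with D2 alleles substituted for D2, nuclei were filtered and doublets removed, MACS peaks of single samples were merged, and clusters were named in Seurat 4.0.5. The annotation release is not given in the sources used here. A symbol listed for only 1 strain would differ for that reason, so the 256 symbols counted only in B6 and the 5392 counted only in D2 (at least 10 counts) were left out. The columns of other labels were deposited as the same sums, are recorded here under the unit other, and were pooled by label, with no error.

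D2 was compared with B6 on the deposited counts in edgeR 4.0.16 (R 4.3.3), using TMM factors, a quasi-likelihood F test with strain as the single term, and adjustment by Benjamini-Hochberg. Transcripts passed filterByExpr and peaks had at least 10 counts, and DESeq2 1.42.0 was an alternative. A standard error is the fold change divided by the root of F. The biological coefficient of variation came to 0.0810 (transcripts) and 0.0535 (peaks). On simulated counts with 200 changed features, edgeR recovered 90.5% of them over 13907 transcripts and 72.0% over 239554 peaks. Both shares belong to the sizes of change set in that check. The share of differences between the strains that edgeR recovers was not tested. The tests of cell type by strain set in the design were not run. Gene positions came from GENCODE vM21 and sequence from RefSeq GRCm38.p6, read with samtools 1.23.1. Python 3.11.15, pandas 2.3.3, numpy 2.4.6 and matplotlib 3.10.9 were used.

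The members and the gene lists were chosen with earlier results of these data known. Named genes were the label markers and list members, the identity genes, the 10 called transcripts that rose most and the 10 that fell most at 5 CPM with strains apart, and the peaks with the largest margins or changes (3 in each direction). Alternatives were other normalizations, filters, pseudocounts and margins, each strain alone, each library left out and the library number as a block. Other series samples, of methylation, were not analysed here. Values of some list members are not reported here.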

Additional observations from a re-analysis of the deposited data

How the results depend on the processing

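With 2 libraries per strain each fit without 1 library assumes that the lone library varies like the others, and such fits gave 893 to 1931 transcripts, 913 to 1042 peaks, 13 to 14 identity genes and 651 to 729 identity peaks. The count of transcripts was 686 with DESeq2, 3173 with symbols counted in 1 strain included, 1008 with overlapping genes left out and 2786 with a crossed replicate block, which was chosen after seeing the data, and that of peaks was 336 with DESeq2. Identity genes numbered 23 with no minimum CPM, 3 at a 4-fold margin, 21 with B6 alone and 26 against neuronal labels alone, and identity peaks 203 at 10 CPM, 44 at a 4-fold margin, 895 with B6 alone and 920 with D2 alone. The cause of these shifts was not tested beyond what each setting adds or removes.

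Of 696 values of 61 named features under alternatives, 627 kept direction and call, 39 lost the call, 24 gained it and 6 reversed without being called. In fits without 1 library Crhbp ran from -0.12 to 0.68, Nxph2 from -0.18 to 0.10, Pvalb from -0.22 to 0.29 and Tac1 from -0.23 to 0.16, and the low value of Crhbp came without B6 replicate 3, the high values of Nxph2 without B6 replicate 3 or D2 replicate 2 (0.10 in both), the low value of Pvalb without D2 replicate 2, and the positive values of Tac1 without B6 replicate 2 or D2 replicate 2 (0.09). DESeq2 lost 9 calls, and fits without 1 library lost 16. Deviations of the libraries numbered 2 correlated at -0.163 over 11965 transcripts and at 0.0208 over 40964 peaks. With 2 libraries per strain these values cannot settle whether the library number pairs the samples, and the labels do not say. With the library number as a replicate block in edgeR, 1525 transcripts and 1573 peaks were called. Kcnc2, Cntnap2, Plcxd3 and Satb1 lost their calls (adjusted p = 0.0584 to 0.1, edgeR) and Sst, Cort and A930002C04Rik gained one. The tests of strain by cell type were not run.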
